A study of Rattus norvegicus with 13 samples.

Results

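Of 13 fat samples from adult female rats, 4 carried a high level of Ucp1 messenger RNA and 9 a low one, and what else set these 2 kinds of fat apart is described here. An array was counted as Ucp1-high where its Ucp1 probe read above log2 9 and as Ucp1-low where it read below log2 8, which placed 4 and 9 arrays of 13, with none in between. The arrays were thus chosen by their measured Ucp1 values. Differences between the Ucp1-high and Ucp1-low arrays, of Ucp1 and of every other gene, are therefore given as descriptions without a test, and tests are given only for the diet of the father and for the relation of genes to Ucp1 within the Ucp1-low arrays.

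Each sample was the fat of 1 female Sprague Dawley rat, an outbred laboratory strain, hybridised as biotin-labelled cRNA to 1 Affymetrix array. In the high-fat group, 6 daughters had fathers fed pellets with 43% fat, and in the control group, 7 daughters had fathers fed chow with 9% fat. All fathers were 15 weeks old when mated to chow-fed females, and all daughters ate chow from weaning at 3 weeks until their fat was taken at 14 weeks. Samples are named by diet and by the number in their titles. The labels give the tissue only as fat, without the depot, and do not say which daughters shared a father or litter, so p-values treat the daughters as independent and measure the spread between these samples.

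Brown adipocytes burn fatty acids to make heat. Their inner mitochondrial membrane carries Ucp1, which lets protons flow back without making ATP, and noradrenaline, acting through beta-adrenergic receptors and cyclic AMP, switches on both lipolysis and the Ucp1 gene. Ucp1-positive cells form the brown depots and also occur, as beige adipocytes, scattered in white fat. Because each array measured a piece of tissue, more cells of a type and more RNA per cell cannot be told apart.

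Ucp1 levels in the Ucp1-high arrays were 11.02 in high-fat 629, 10.96 in high-fat 663, 9.76 in control 662 and 9.28 in control 658. In the Ucp1-low arrays they ran from 6.11 in control 664, with a median of 6.41, to 7.40 in control 622. The members nearest the limits were thus control 658, just inside the Ucp1-high set, and control 622, just outside it, and the other 8 Ucp1-low arrays lay between 6.11 and 6.54. Levels of all genes are log2 values, in which a difference of 1 is a 2-fold difference.

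**Figure D1:**
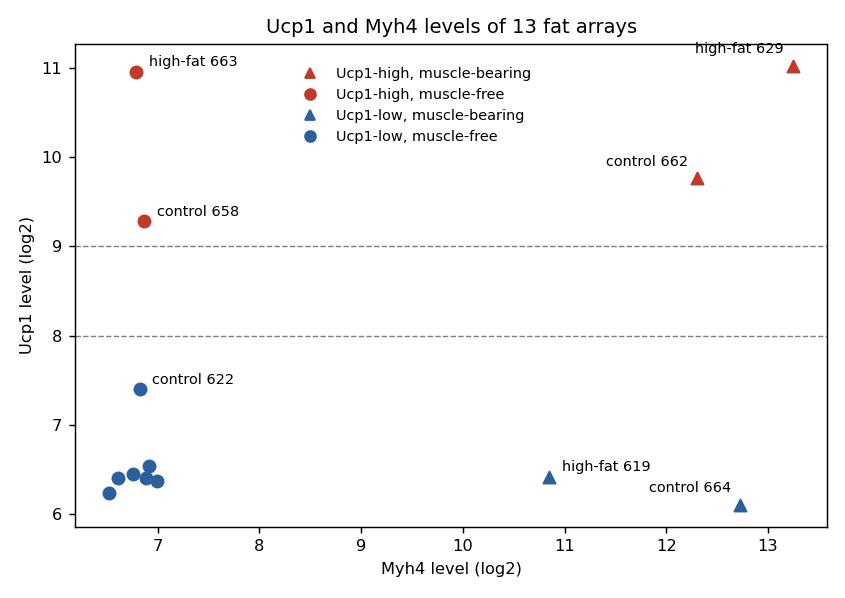
Ucp1 level (log2, vertical axis) against the level of the muscle myosin gene Myh4 (log2, horizontal axis), 1 point per array; red marks the 4 Ucp1-high and blue the 9 Ucp1-low arrays, triangles the arrays with skeletal muscle signal, and dashed lines the limits of 8 and 9. High Ucp1 occurs both with Myh4 (13.25 and 12.31) and without it (6.79 and 6.87), as does low Ucp1.

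The arrays also differed in how much other tissue they read. Myh4, a fast myosin heavy chain of skeletal muscle, read 13.25 in high-fat 629, 12.72 in control 664, 12.31 in control 662 and 10.85 in high-fat 619, and 6.53 to 6.99 in the other 9 arrays. These 4 muscle-bearing arrays held 2 Ucp1-high and 2 Ucp1-low samples, and the correlation of set with Myh4 level was 0.34 over the 13 arrays. Myh4 was fitted as a covariate, and the difference fitted with it, with its standard error (SE), is the one given for each gene unless stated otherwise. Array medians were 7.66 to 7.72 and the mean of 10 adipocyte markers was 11.89 to 12.13, so all 13 arrays read as fat. Control 658 stood apart within the Ucp1-high set. Its 8 smooth muscle markers averaged 11.53, against 9.79 to 10.42 in the other Ucp1-high and 9.51 to 10.14 in the Ucp1-low arrays, and the spread of its values over genes was the smallest of the 13 (SD 1.78, against up to 1.96). All 8 smooth muscle markers had a difference above 0 between the sets, with a median of 0.67 that was 0.20 without control 658, and the value without that array follows where leaving it out turned the sign or moved the value by more than 1.5 times. Without it the median of all genes was -0.01. The part of the smooth muscle signal in the other results of control 658 was not tested.

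The genes that separated the sets by a wide margin were few, and several of them act in the uptake, activation and oxidation of fatty acids. Of 14506 genes, 8 were higher by at least 1 with all 4 Ucp1-high arrays above all 9 Ucp1-low arrays (0.0551% of genes), Ucp1 among them. These were Ucp1, Cpt1b, Ppargc1a, Slc27a2, Otop1, Acsf2, Pank1 and Calml3. In the opposite direction 1 gene, Sema3e, met the same limit (0.00689%). At any size of difference, 49 genes were higher without overlap (0.338%) and 133 lower (0.917%). These shares describe the split that chose the arrays, and nothing is read from them about single genes. They are also the background for the counts given for each list.

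**Figure D2:**
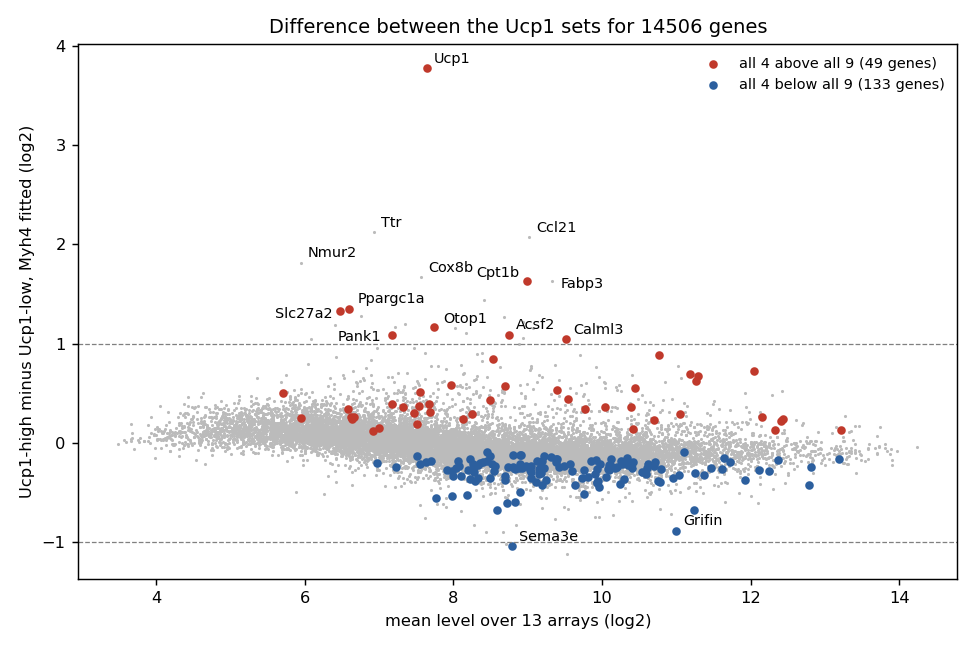
Difference between the Ucp1-high and Ucp1-low arrays with Myh4 fitted (log2, vertical axis) against the mean level over 13 arrays (log2, horizontal axis) for 14506 genes; red points are the 49 genes with all 4 Ucp1-high arrays above all 9 Ucp1-low arrays, blue points the 133 with all 4 below, and dashed lines mark differences of 1 and -1. Ucp1 lies far above all other genes at 3.78, and Nmur2 and Ttr are high in 1 array each.

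To show the genes by sequence as well as by level, the 250 bases before the start of 4 of them are printed, chosen as the gene that defines the sets, its coactivator, a fatty acid enzyme and a respiratory chain subunit. Sequences are from RefSeq, build GRCr8, and run 5′ to 3′ toward the start of the gene. Ucp1 is on the minus strand at chr19:41721422-41721671, Ppargc1a on the plus strand at chr14:63634058-63634307, Slc27a2 on the plus strand at chr3:134257851-134258100 and Cox8b on the minus strand at chr1:205408274-205408523. Capitals mark matches to motifs searched on both strands.
Ucp1: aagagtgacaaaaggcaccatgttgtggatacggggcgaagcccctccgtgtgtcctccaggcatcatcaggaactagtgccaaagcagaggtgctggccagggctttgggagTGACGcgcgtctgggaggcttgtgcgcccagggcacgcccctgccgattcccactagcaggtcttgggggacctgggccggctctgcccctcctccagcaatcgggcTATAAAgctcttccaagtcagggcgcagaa
Ppargc1a: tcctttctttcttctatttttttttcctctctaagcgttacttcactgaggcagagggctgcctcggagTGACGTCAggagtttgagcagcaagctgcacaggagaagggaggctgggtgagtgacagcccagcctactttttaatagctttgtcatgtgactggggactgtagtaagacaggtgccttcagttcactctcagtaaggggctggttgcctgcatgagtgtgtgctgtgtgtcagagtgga
Slc27a2: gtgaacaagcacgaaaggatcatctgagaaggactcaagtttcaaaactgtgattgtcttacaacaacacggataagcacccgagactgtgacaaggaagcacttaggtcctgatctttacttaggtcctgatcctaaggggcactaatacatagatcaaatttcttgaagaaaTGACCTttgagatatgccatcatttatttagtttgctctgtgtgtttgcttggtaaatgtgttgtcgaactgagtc
Cox8b: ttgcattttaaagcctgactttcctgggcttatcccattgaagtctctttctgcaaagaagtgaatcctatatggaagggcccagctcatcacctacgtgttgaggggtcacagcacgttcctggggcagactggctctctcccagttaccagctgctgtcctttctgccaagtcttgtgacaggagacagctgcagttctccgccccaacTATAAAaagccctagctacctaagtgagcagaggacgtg
The motifs, which were chosen after the levels were seen, were the cAMP response element TGACGTCA, its half-site TGACG, which the full element contains, the nuclear receptor half-site AGGTCA and the TATA box TATAAA. The Ucp1 window held TGACG 137 bases and TATAAA 30 bases before the start. The Ppargc1a window held the full TGACGTCA 181 bases before the start, and the Slc27a2 window AGGTCA on the opposite strand, printed as TGACCT, 76 bases before. The Cox8b window held TATAAA 39 bases before the start. Among windows of the same length before 11968 genes of the array, 2.28% held TGACGTCA, 23.3% TGACG, 11.8% AGGTCA and 11.3% TATAAA. A match is a description of the letters and not evidence of binding. Windows were searched for the 8 of 10 genes that the table holds. Of the 4 not printed, those of Calml3 and Fabp3 held TGACG and none of the other motifs, and those of Otop1 and Pank1 held none of the 4. The windows of Cpt1b and Acsf2 were not analysed here.

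Among the uncoupling proteins and nucleotide carriers, Ucp1 alone separated the sets. Its difference was 3.78 ± 0.37 (SE), with means of 10.25 ± 0.87 (SD, n = 4) and 6.48 ± 0.37 (SD, n = 9), and was 4.28 without control 658. Ucp2, a broadly expressed relative, differed by -0.14 ± 0.07, or -0.04 without control 658. Ucp3, the relative typical of muscle and brown fat, differed by 0.17 ± 0.17 (0.32 without control 658), and its difference was -0.12 among muscle-free and 0.80 among muscle-bearing arrays. The adenine nucleotide carriers Slc25a4 and Slc25a5 differed by 0.09 and -0.02, or 0.23 and 0.08 without control 658. Over the 8 members of this list the median was 0.08 (0.15 without control 658), and over all 14506 genes it was -0.03 with 42.8% of genes above 0.

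Among 21 measured transcription factors and cofactors of brown fat, Ppargc1a, the coactivator of mitochondrial biogenesis and of the Ucp1 gene, was the 1 member higher without overlap. It read 7.34 in control 658, 7.72 in control 662, 8.19 in high-fat 629 and 7.34 in high-fat 663, against 5.78 to 6.48 (median 6.08) in the Ucp1-low arrays. The sets lay well apart, and the difference was 1.35 ± 0.12. Ppara, the nuclear receptor for fatty acids, differed by 0.79 ± 0.18 and overlapped through control 658, which read 8.09 against a Ucp1-low maximum of 8.15. Without control 658 the Ppara difference was 1.02 and the sets did not overlap. Irf4, a thermogenic regulator, differed by 0.54 ± 0.37 with overlap.

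Factors of brown adipocyte identity did not separate the sets. Ebf2 differed by -0.04 ± 0.16, Zic1 by 0.13 ± 0.14 and Lhx8 by 0.07 ± 0.05, and Zic1 and Lhx8 mark the classical brown depots. Without control 658, Ebf2 was at 0.04 and Lhx8 at 0.00. Zic1 and Lhx8 read below the array medians of 7.66 to 7.72 in all 13 arrays, so differences in them are poorly resolved. Zic1 read 7.28 in control 662 and 6.65 to 6.72 in the other 3 Ucp1-high arrays, within the Ucp1-low range of 6.42 to 6.94. Tbx15, a factor of depot patterning, was spread over the Ucp1-high arrays. It read 6.98 in control 658, 7.92 in high-fat 663, 8.99 in control 662 and 9.59 in high-fat 629, against 7.85 to 8.68. The Ucp1-low maximum was in muscle-bearing control 664, and control 662 and high-fat 629 also bear muscle. High-fat 619, which bears muscle too, read 8.02. The Tbx15 difference turned from -0.08 to 0.35 without control 658, and was -0.56 among muscle-free and 0.94 among muscle-bearing arrays. Pparg, the master regulator of all adipocytes, differed by -0.11 ± 0.08. The list as a whole had 9 members above and 12 below 0 and a median of -0.02, or 0.04 without control 658.

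The adrenergic and thyroid hormone arm was level between the sets, with 0 of 18 measured members separated in either direction and a median of 0.01 (0.04 without control 658). Adrb3, the beta receptor of fat cells, read 11.42, 11.60, 11.77 and 11.37 in control 658, control 662, high-fat 629 and high-fat 663, against 10.89 to 11.98 in the Ucp1-low arrays. The Ucp1-high values lay inside the Ucp1-low range, and the difference was 0.01 ± 0.22 (0.05 without control 658). Dio2, the enzyme that activates thyroid hormone in brown fat and is induced by cold, read 5.39 to 5.78 over all 13 arrays, highest in control 658, and differed by 0.11 ± 0.06, or 0.04 without that array. Kcnk3, a potassium channel enriched in brown fat, differed by 0.05 ± 0.16, or 0.21 without control 658. Gnas, which couples the receptors to cyclic AMP production, differed by 0.11 ± 0.04.

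Among genes whose sets did not overlap, the largest difference after Ucp1 was in Cpt1b, the carnitine palmitoyltransferase of muscle and brown fat that admits long-chain fatty acids to mitochondria. It read 9.55 in control 658, 10.57 in control 662, 10.95 in high-fat 629 and 10.22 in high-fat 663. In the Ucp1-low arrays it ran from 7.86 to 9.25 with a median of 8.27, and its highest value was in control 664, which bears muscle. The sets did not overlap, and the difference of 1.64 ± 0.22 was 1.64 among muscle-free and 1.82 among muscle-bearing arrays. Slc27a2, a fatty acid transporter and very long-chain acyl-CoA synthetase, read 6.97 in control 658, 7.17 in control 662, 7.88 in high-fat 629 and 7.64 in high-fat 663, against 5.94 to 6.23 in the Ucp1-low arrays. The Ucp1-low arrays thus spanned a narrow range below all 4, and the difference was 1.33 ± 0.15.

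Acsf2, a mitochondrial acyl-CoA synthetase, read 8.78 in control 658, 9.91 in control 662, 10.06 in high-fat 629 and 9.59 in high-fat 663, against 8.11 to 8.67. Control 658 lay close to the Ucp1-low range and the other 3 well above it, and the difference of 1.09 ± 0.19 was 1.40 without control 658. Pank1, which catalyses the first step of coenzyme A synthesis, was likewise lowest in control 658 and highest in high-fat 629, with 7.27, 8.07, 8.69 and 8.07 in control 658, control 662, high-fat 629 and high-fat 663 against 6.61 to 7.02, and a difference of 1.08 ± 0.18 that was 1.36 without control 658. Fabp3, the fatty acid binding protein of heart and muscle, read 9.74, 11.23, 10.96 and 10.82 in the same 4 arrays and 8.24 to 10.22 in the Ucp1-low arrays. Only muscle-bearing control 664 brought the Ucp1-low range up to 10.22, the next being 8.79, and the difference of 1.63 ± 0.27 was 1.77 among muscle-free arrays. Among the 16 measured genes of fatty acid uptake and activation, 7 were above and 9 below 0, and Slc27a2 was the 1 higher without overlap. The median of -0.06 turned to 0.05 without control 658. Cd36, a fatty acid receptor, was at -0.05 ± 0.03 (-0.03 without control 658), lipoprotein lipase, Lpl, at -0.11 ± 0.03 and the adipocyte carrier Fabp4 at -0.11 ± 0.09 (-0.05).

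**Figure D3:**
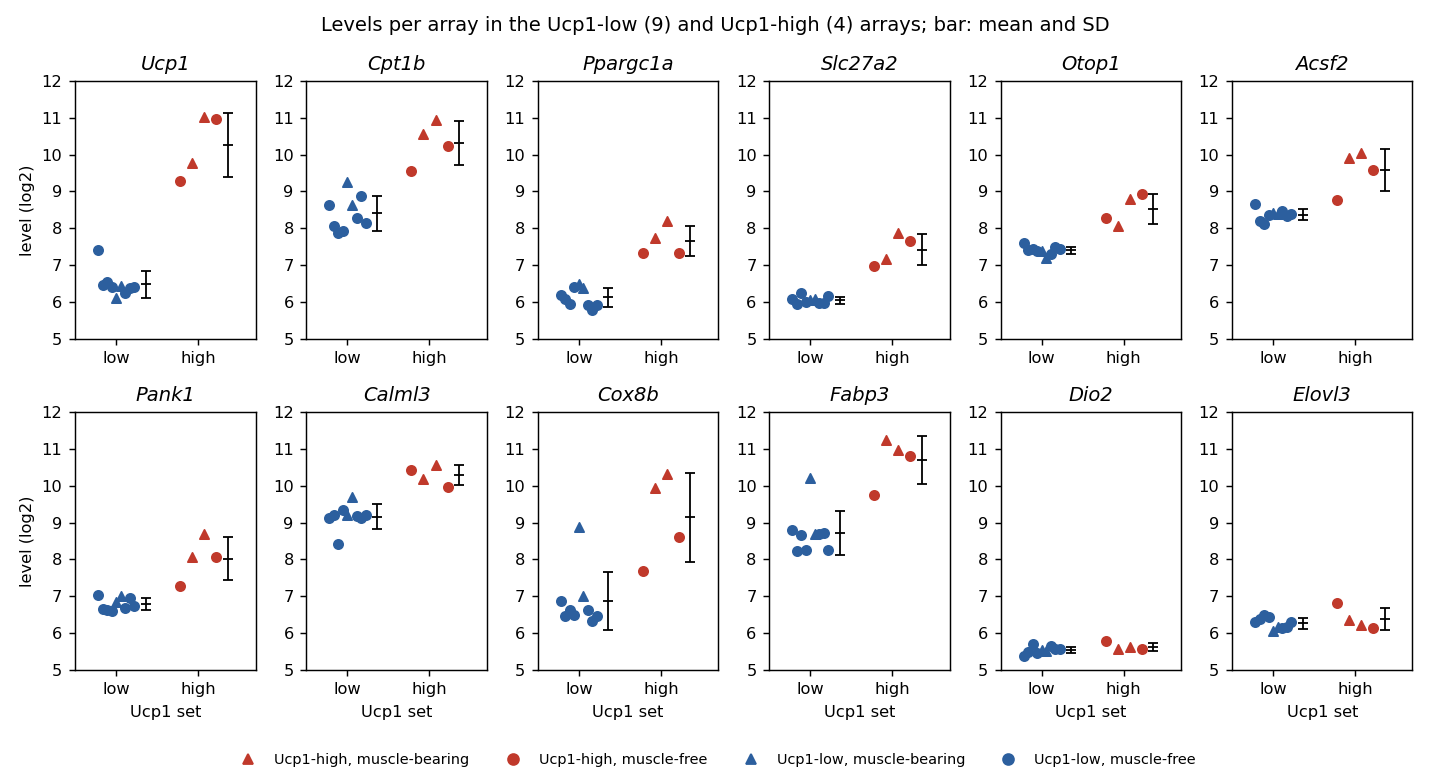
Levels (log2, vertical axes) of 12 genes in the 9 Ucp1-low and 4 Ucp1-high arrays (horizontal axes), 1 point per array with triangles for muscle-bearing arrays; the bar beside each set is its mean and SD. For the first 8 genes, Ucp1 to Calml3, every Ucp1-high array lies above every Ucp1-low array, Cox8b and Fabp3 overlap through muscle-bearing control 664, and in Dio2 and Elovl3 the sets overlap except for control 658, which lies above all Ucp1-low arrays.

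Beta-oxidation genes differed less. Of 25 measured members, 17 were above 0 (against 42.8% of all genes), with a median of 0.19 that was 0.30 without control 658. Higher without overlap were 2, Cpt1b and Acadl (against 0.338% of all genes). Acadl, the long-chain acyl-CoA dehydrogenase, read 11.56, 11.75, 11.97 and 11.62 in control 658, control 662, high-fat 629 and high-fat 663, against 10.84 to 11.27, a difference of 0.62 ± 0.09. Acadm, the medium-chain enzyme, differed by 0.62 ± 0.14 and the carnitine-acylcarnitine carrier Slc25a20 by 0.49 ± 0.15, both with overlap. Ehhadh, a bifunctional enzyme of peroxisomal oxidation, was higher by 1.05 without overlap once control 658 was left out.

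The citric acid cycle list showed 18 of 21 measured members above 0 (against 42.8% of all genes) and a median of 0.12. Higher without overlap were 2 members (against 0.338% of all genes). Idh3a, the catalytic subunit of the NAD-dependent isocitrate dehydrogenase, read 10.48 to 11.25 against 10.02 to 10.45, a difference of 0.55 ± 0.12. Idh3g, a regulatory subunit of the same enzyme, was the other, with a difference of 0.24 ± 0.05; it was named after its values were seen. The pyruvate dehydrogenase subunit Pdha1 differed by 0.41 ± 0.10 with overlap.

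The respiratory chain as a list centred near 0. Of 72 subunits of oxidative phosphorylation, 40 were above and 32 below 0, with a median of 0.01 (0.06 without control 658). The electron carrier Cycs, cytochrome c, was the 1 member higher without overlap (0.22 ± 0.08, named after its values were seen). Cox8b, the cytochrome c oxidase subunit of heart, muscle and brown fat, differed by 1.67 ± 0.25. It read 7.69 in control 658, 8.61 in high-fat 663, 9.94 in control 662 and 10.32 in high-fat 629. In the Ucp1-low arrays it read 8.89 in muscle-bearing control 664 and 6.33 to 6.99 in the other 8, so the sets overlapped through that array, and within muscle-free and within muscle-bearing arrays they did not (differences of 1.60 and 2.19). The mitochondrial ribosome had 57 of 68 members below 0 (42.8% of all genes were above 0) and a median of -0.06. That median turned to 0.01 without control 658. Genes of mitochondrial biogenesis had a median of -0.04 over 22 members, which turned to 0.04, and the chaperonin Hspd1 among them was higher without overlap (0.29 ± 0.06). Branched-chain amino acid breakdown, another fuel route of brown fat, had 14 of 18 members below 0 and a median of -0.05, which turned to 0.03.

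The list of fatty acid synthesis, elongation and their control centred higher as well. Of 14 measured members of this list, 12 were above 0 (against 42.8% of all genes) with a median of 0.40. Higher without overlap were 3 members (against 0.338% of all genes). Acaca, the acetyl-CoA carboxylase of fat synthesis, read 11.76, 11.22, 11.95 and 10.80 in control 658, control 662, high-fat 629 and high-fat 663, against 10.04 to 10.72, a difference of 0.88 ± 0.21 that was 0.65 without control 658. Acacb, the mitochondrial form, whose product restrains Cpt1 enzymes, differed by 0.85 ± 0.18. Pdk4, the kinase that inhibits pyruvate dehydrogenase and is listed here for its control of that carbon supply, differed by 0.73 ± 0.16, with sets that met almost edge to edge at 12.34 in high-fat 663 and 12.33 in the highest Ucp1-low array. The fatty acid synthase Fasn overlapped, at 11.09 to 12.11 against 10.10 to 11.17, with control 658 highest, and its difference of 0.78 ± 0.28 was 0.46 without that array. Elovl6, which elongates palmitate, differed by 0.43 ± 0.11 and the sugar-responsive factor Mlxipl by 0.58 ± 0.25, or 0.32 without control 658. Elovl3, the elongase known for brown fat, read 6.04 to 6.82 over all arrays, highest in control 658, and differed by 0.18 ± 0.12, or 0.01 without that array.

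Lipid droplet coats and lipases did not separate the sets in either direction (0 of 13 measured members). Of these 10 were below 0, with a median of -0.07, or -0.02 without control 658. Plin5, the droplet coat that tethers mitochondria, differed by 0.06 ± 0.05, the triglyceride lipase Pnpla2 by -0.05 ± 0.05 (-0.01 without control 658), and the droplet coat Plin2 by -0.22 ± 0.08 (-0.09). Glycerol phosphate metabolism differed from this, with glycerol kinase Gk at 0.71 ± 0.17 and the mitochondrial glycerol phosphate dehydrogenase Gpd2 at 0.74 ± 0.21, both overlapping through control 658. Gpd2 read 8.76 in control 658 and 9.67 to 10.39 in the other 3, against 8.59 to 8.95 in the Ucp1-low arrays, and without control 658 it differed by 1.07 without overlap. Heat cycles that do not need Ucp1, such as creatine cycling and calcium cycling, had a median of 0.06 over 11 members, with the creatine kinase Ckb at 0.10 ± 0.07 (0.06 without control 658) and the calcium pump Atp2a2 at -0.02 ± 0.06 (-0.07). Secreted factors of brown fat had a median of -0.02 over 14 members, or -0.00057 without control 658, with Fgf21 at -0.02 ± 0.06 (-0.08) and Bmp7 at 0.13 ± 0.21 (0.28).

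**Figure D4:**
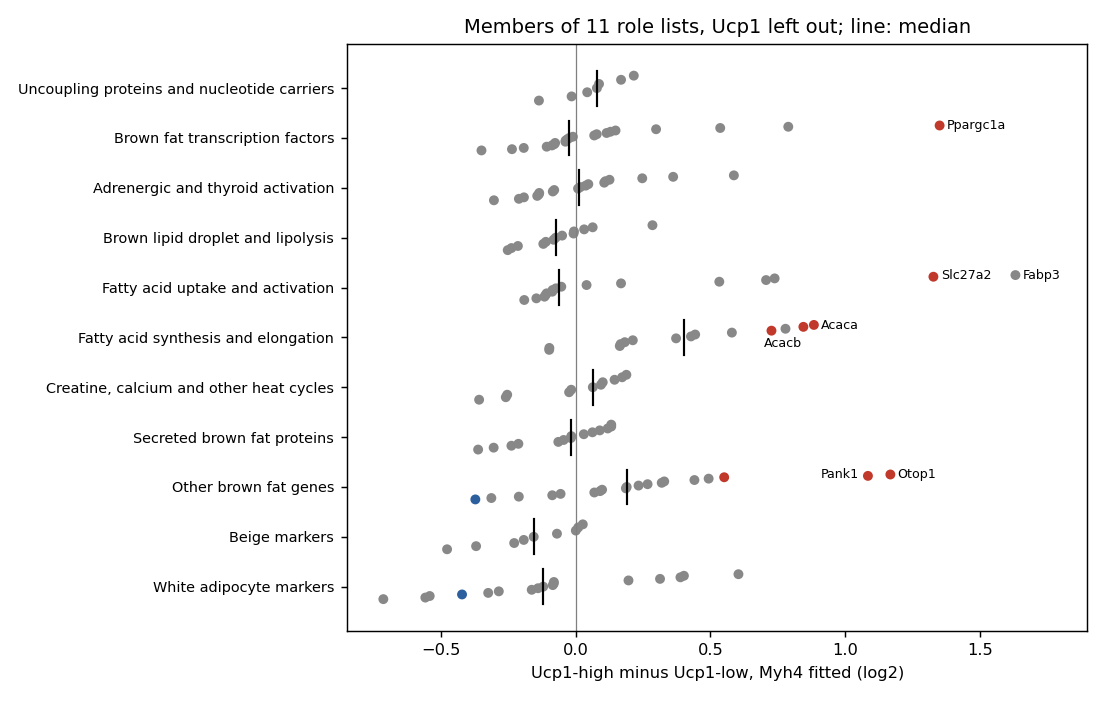
Difference between the Ucp1-high and Ucp1-low arrays with Myh4 fitted (log2, horizontal axis) for each measured member of 11 role lists (vertical axis), Ucp1 left out; red points are members higher and blue points members lower without overlap, grey points overlap, and black lines are list medians. Genes beyond 0.8 lie in 4 of the lists, most lists centre near 0, and the fatty acid synthesis list centres at 0.40.

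Otop1, a proton channel, was among the closest companions of Ucp1. It read 8.29 in control 658, 8.06 in control 662, 8.80 in high-fat 629 and 8.94 in high-fat 663, against 7.20 to 7.59 in the Ucp1-low arrays, with no overlap and a difference of 1.17 ± 0.15. Over the 13 arrays, with Myh4 fitted out of both, the 10 genes most correlated with Ucp1 were Otop1 and Slc27a2 (Pearson r of 0.98 each), Pank1 (0.97), Ppargc1a (0.96), Acsf2 and Cpt1b (0.94 each), Cox8b (0.92), and Acadl, Gpd2 and Ppara (0.89 each). These correlations rest on the gap between the sets of arrays, which the genes share, and are a description with no test. Calml3, a calmodulin-like protein, read 9.98 to 10.58 against 8.41 to 9.70 and differed by 1.04 ± 0.19, or 0.90 without control 658. Fmo1 and Fmo2, flavin monooxygenases, differed by 0.67 ± 0.21 and 0.70 ± 0.26, and Slc6a13, a transporter of GABA, by 0.58 ± 0.14, all without overlap.

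Over 31 measured genes of brown fat, 25 were above 0 (against 42.8% of all genes) and 6 below. Their median was 0.19, or 0.23 without control 658, against -0.03 over all genes. The median was 0.20 among muscle-free and 0.33 among muscle-bearing arrays. Without overlap 6 were higher and 0 lower, where 0.338% and 0.917% of all genes were. Ucp1 is 1 of the 6 by the choice of arrays, and the others, which were chosen with earlier results known, were Ppargc1a, Cpt1b, Slc27a2, Otop1 and Pank1. The 30 members other than Ucp1 averaged 8.49 in control 658, 8.75 in high-fat 663, 8.83 in control 662 and 9.00 in high-fat 629. Their mean was 8.10 to 8.33 in the Ucp1-low arrays, so the sets did not overlap in it. Myh4 was not fitted in this mean, and the separated genes just named are part of it. Of 9 measured markers that define the brown adipocyte, 8 were above 0 (against 42.8% of all genes), Ucp1 by the choice of arrays. Higher without overlap were 2 (against 0.338% of all genes), Ppargc1a and Ucp1. Cox8b differed by 1.67 with overlap. Kcnk3, Lhx8, Dio2, Zic1 and Elovl3 differed by 0.05, 0.07, 0.11, 0.13 and 0.18, or 0.21, 0.00, 0.04, 0.15 and 0.01 without control 658. Ebf2 was the 1 below 0, at -0.04 (0.04 without control 658). Members such as Cidea, Prdm16 and Cox7a1 were not analysed here. A further list of other brown fat genes, with 19 measured members, had 3 higher and 1 lower without overlap and a median of 0.19. The lower member, S100b, read 11.43 to 11.91 in the Ucp1-high and 11.92 to 12.40 in the Ucp1-low arrays. Its difference was -0.37 ± 0.11. Of 9 measured beige markers 6 were below 0, and the median of -0.16 was -0.05 without control 658. Among them Tmem26, a surface protein, differed by -0.19 ± 0.06.

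Of 17 measured markers of white adipocytes 12 were below 0 (42.8% of all genes were above 0). Their median of -0.12 was -0.06 without control 658. Genes with a mean level above the median of all genes had a median of -0.10, or -0.02 without control 658. The white adipocyte markers averaged 10.68 to 10.88 in the Ucp1-high and 10.84 to 11.07 in the Ucp1-low arrays. Lower without overlap was 1 (against 0.917% of all genes), Sncg, a synuclein abundant in white fat. Sncg read 12.37, 12.58, 12.14 and 12.75 in control 658, control 662, high-fat 629 and high-fat 663, against 12.82 to 13.07, a difference of -0.42 ± 0.09. Lep, the satiety hormone leptin, differed by -0.54 ± 0.23 with overlap, and Adipoq, adiponectin, by -0.08 ± 0.03. Npr3, the clearance receptor for natriuretic peptides, differed by -0.71 ± 0.28 and the signalling protein Bmp4 by -0.56 ± 0.19, both with overlap. Resistin, Retn, went the other way at 0.60 ± 0.23, with 9.91 to 10.67 against 8.97 to 10.04.

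The 10 largest lower differences without overlap were in genes of varied function. Sema3e, a secreted semaphorin, read 7.49 in control 658, 7.93 in control 662, 8.16 in high-fat 629 and 8.47 in high-fat 663, against 8.73 to 9.61, a difference of -1.04 ± 0.24, or -0.72 without control 658. Its 4 Ucp1-high values were spread widely, with control 658 lowest. Grifin, a galectin-related protein, differed by -0.89 ± 0.24, Htra4, a serine protease, by -0.68 ± 0.17, and Hspb1, a small heat shock protein, by -0.67 ± 0.14. Dusp14, a phosphatase, differed by -0.61 ± 0.11, the zinc exporter Slc30a1 by -0.54 ± 0.13, Slc27a3, of the fatty acid transporter family, by -0.56 ± 0.16, and Zfand4 by -0.53 ± 0.14. The transcription factor Tbx18 (-0.60 ± 0.16) and Lfng, which modifies Notch (-0.52 ± 0.12), were -0.31 and -0.33 without control 658. Of the 133 genes lower without overlap, 118 had a mean level above the median of all genes, and genes above that level had a median difference of -0.10, or -0.02 without control 658.

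Control 658 took part in the count of separated genes in both directions. Without it, over 12 arrays, 11 genes were higher by at least 1 without overlap, and 0 were lower. These were Acsf2, Cpt1b, Ehhadh, Fabp3, Gpd2, Otop1, Pank1, Ppara, Ppargc1a, Slc27a2 and Ucp1. At any size 141 of 14506 genes were then higher and 164 lower without overlap, against 49 and 133 with it. Leaving out any array can only add to these any-size counts, so their rise says nothing particular about control 658. Counting overlapping sets too, 26 genes were higher by at least 1 (0.179%) and 3 lower (0.0207%). Of those higher, 18 had overlapping sets, and 11 of these fell under 1 without control 658. The neuropeptide receptor Nmur2 read 11.15 in control 658 and 5.31 to 5.64 in all others, and the progesterone receptor Pgr 9.75 in control 658 and 5.88 to 6.36 in all others. The prepronociceptin gene Pnoc read 10.86 in that array and 6.92 to 7.19 in the others. Ttr, transthyretin, was high in a different array, at 12.75 in high-fat 663 against 6.19 to 6.62 elsewhere. Nmur2, Pgr, Pnoc and Ttr were named after their values were seen.

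The sizes of the leading differences are given here for fat with and without muscle. These genes were picked with all 4 Ucp1-high arrays above all 9 Ucp1-low arrays. A difference above 0 in both kinds of fat was thereby fixed, and only its size is described. Within the 9 muscle-free arrays, 2 Ucp1-high against 7 Ucp1-low, and within the 4 muscle-bearing arrays, 2 against 2, the difference was 3.57 and 4.13 for Ucp1, 1.31 and 1.53 for Ppargc1a, 1.26 and 1.47 for Slc27a2 and 1.19 and 1.15 for Otop1. It was 0.82 and 1.58 for Acsf2 and 0.91 and 1.45 for Pank1, and 1.13 and 0.93 for Calml3. Within both kinds of array 89 genes were higher without overlap (0.614%) and 287 lower (1.98%), with Cox8b and Fabp3 among the higher. The 15 measured skeletal muscle markers had a median difference of 1.66 before Myh4 was fitted and 0.32 after. The differences within each kind of array carry no Myh4 fit, and muscle was not matched among the muscle-bearing ones. There Myh4 read 13.25 and 12.31 in the Ucp1-high and 12.72 and 10.85 in the Ucp1-low arrays. The skeletal muscle markers had a median difference of 1.51 there and of 0.04 among muscle-free arrays. The part of muscle in the muscle-bearing differences was not tested. Of other cell types, endothelial markers were below 0 for 11 of 11 members (42.8% of all genes were above 0). Their median of -0.17 was -0.06 without control 658. Genes with a mean level above the median of all genes had a median of -0.10, or -0.02 without control 658. Lymphocyte markers had a median of -0.10. Medians moved from -0.05 to -0.22 for mesothelial markers, from -0.03 to 0.07 for macrophage markers and from 0.09 to -0.01 for Schwann cell and nerve markers when control 658 was left out. Their part in the differences was not tested.

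**Figure D5:**
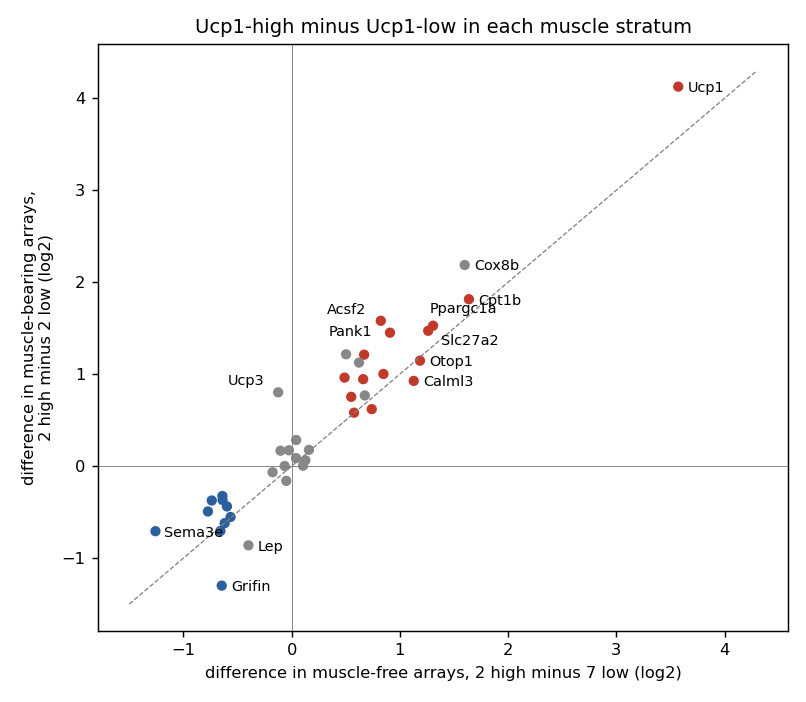
Difference between Ucp1-high and Ucp1-low arrays among muscle-free arrays (log2, 2 against 7, horizontal axis) and among muscle-bearing arrays (log2, 2 against 2, vertical axis) for the genes named most often; red points are higher and blue points lower without overlap, grey points overlap, and the dashed line marks equal differences. Ucp1, Cpt1b, Ppargc1a, Slc27a2 and Otop1 lie near the line, while Ucp3 is at -0.12 among muscle-free and 0.80 among muscle-bearing arrays. Myh4 is not fitted in either difference.

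Daughters of both diets were found on both sides of the split. The Ucp1-high set held 2 control and 2 high-fat daughters and the Ucp1-low set 5 and 4 (two-sided Fisher's exact p = 1). Over all arrays Ucp1 averaged 7.42 ± 1.5 (SD, n = 7) for control fathers and 7.90 ± 2.39 (SD, n = 6) for high-fat fathers, and the difference was 0.48 with a two-sided exact permutation p of 0.636. The difference was smaller than the spread within either group and turned to -0.14 without high-fat 629 and to -0.13 without high-fat 663. Over 1716 arrangements the smallest p possible was 0.000583. Within the Ucp1-high set, the levels of 11.02 and 10.96 in the high-fat daughters lay above the 9.76 and 9.28 of the control daughters, a comparison of 2 arrays with 2 that was not tested. In limma, 0 of 14506 genes differed by diet at an adjusted p under 0.05 (0%), and 1155 had an unadjusted p under 0.05 (7.96%). The adjusted p was 0.81 for Ucp1, 0.75 for Cpt1b and 0.99 for Ppargc1a and Cox8b. The differences between diets were 0.35 for Cpt1b and -0.01 each for Ppargc1a and Cox8b. In simulated data the same test recovered 13.4% of genes with a diet change of 0.5 and 51.8% with a change of 1. The simulated spread left out the difference between the Ucp1 sets, so these shares are too high for genes that follow Ucp1. In the data the SE of the diet difference was 0.96 for Ucp1, 0.53 for Cpt1b, 0.41 for Ppargc1a and 0.72 for Cox8b. The count of 0 therefore does not show that no gene differed. By sample number, 1 of 7 daughters numbered 619 to 631 and 3 of 6 numbered 656 to 664 were Ucp1-high, and the labels do not say what the numbers mean.

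Within the Ucp1-low arrays, where the choice of arrays did not fix the outcome, no gene passed a test of its relation to Ucp1. In limma with Myh4 as a covariate, 0 of 14505 genes had a slope on Ucp1 at an adjusted p under 0.05 (0%), and 268 had an unadjusted p under 0.05 (1.85%). Of the 30 brown fat genes other than Ucp1, 18 had a slope above 0 and 1, the receptor Ntrk3, had an unadjusted p under 0.05 (slope of 0.60, limma unadjusted p = 0.031, adjusted p = 1). The slopes were 0.29 for Pank1, 0.26 for Cpt1b, 0.18 for Ppargc1a and 0.17 for Otop1, and the adjusted p in limma was 1 for each. Control 622 held most of the range of Ucp1 in these 9 arrays, so the slopes lean on 1 sample. The other 8 read 6.11 to 6.54, below the array medians of 7.66 to 7.72. In simulated data a slope of 0.5 was recovered for 11.6% of genes and a slope of 1 for 72.2%. The count of 0 therefore does not show that no gene follows Ucp1 there.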

How the data were processed

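Expression was measured on 13 arrays, 1 per daughter, and titles gave the groups and numbers. The authors deposited log2 values of 29214 probes, made with RMA (background correction, normalization between arrays and probe summary) and Partek, per the submitters' processing notes. For versions and filters the sources used here give nothing, and the values (3.24 to 14.54) show the log2 scale. RMA compresses low values, so differences of dim genes are understated, and background per probe was not assessed.

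Probes were named from the platform annotation. Of 29214, 15310 had 1 gene symbol, 323 several and 13581 were not listed. The brightest probe by mean was kept for 527 genes with several, which left 14506 genes, with no filter on dim genes. Ucp1 has 1 probe.

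The Ucp1 sets were compared with lmFit of limma 3.58.1 in R 4.3.3, with the Myh4 level as covariate, for the difference and its ordinary SE only. Diet (no covariate) and the slope on Ucp1 within the Ucp1-low arrays (Myh4 as covariate) were tested with lmFit and eBayes, two-sided, Benjamini-Hochberg adjusted over all genes, threshold 0.05. Steps were tested on simulated data. Figures used matplotlib 3.10.9.

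Members and gene lists were chosen with earlier results of these data known. Named were role list members, a fixed set of well-known brown and white fat genes, the 15 largest higher and 10 largest lower differences without overlap, up to 4 leading members of each other list, and the 10 genes most correlated with Ucp1. Others named are stated as such. Ehhadh, Idh3g, Cycs, Ccl21, Nmur2, Pgr, Pnoc and Ttr, and the search motifs, were chosen after values were seen. Alternatives were other covariates, other scalings, other probe rules, a level filter, a lower limit, Ucp1 as a continuous level and leaving out each array. The muscle-free and muscle-bearing comparisons were added after seeing the data.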

Additional observations from a re-analysis of the deposited data

Results flagged for a closer look

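For 32 genes or lists, each set of arrays was searched for a single sample far from the rest, by the gap to its nearest neighbour relative to the whole range. Over the 64 sets, chance gives such a sample in about 1 in 20 where arrays and genes were chosen without these values. The arrays were chosen by Ucp1 and many of the genes by their difference between the sets. That rate is therefore only nominal here, and for Ucp1 it does not hold. In the Ucp1-low arrays, control 622 was high in Ucp1, at 7.40 with the next at 6.54. Control 664, which bears muscle, was high in Cox8b, at 8.89 with the next at 6.99, and in Fabp3, at 10.2 with the next at 8.79. Control 631 was low in Calml3, at 8.41 with the next at 9.12. In the Ucp1-high arrays, high-fat 629 was low in Grifin, at 9.94 with the next at 10.50, control 662 was high in Zic1, at 7.28 with the next at 6.72, and control 658 was high in Lhx8, at 7.43 with the next at 7.24.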

How the results depend on the processing

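The brown fat median of 0.19 was 0.30 with array spread as a further covariate and 0.33 among genes above the median level, and 0.16 to 0.29 with each array left out. The 8 genes higher by at least 1 without overlap became 13 without the 4 arrays with most Myh4, 3 among genes above the median level and 14 at a limit of 1.5-fold, and 7 to 12 with each array left out, with 12 without high-fat 663 and 11 without control 658. The same 8 were kept with no covariate, with the muscle list, with diet, number range or array spread as a covariate, after renewed quantile normalization, after centring and with the mean of probes. Without the 4 arrays 6 were kept (not Acsf2 and Pank1), and with single arrays left out 5 to 8, with 5 without control 664 and 5 without high-fat 663. The 1 gene lower became 3 without the 4 arrays, 0 with Ucp1 as a continuous level and 6 at 1.5-fold, and 0 to 5 with each array left out, with 0 without control 631 or control 658, 2 without control 662 and 5 without high-fat 663. The Ucp1 difference by diet was -0.14 without high-fat 629 and -0.13 without high-fat 663, and -0.14 to 0.87 over all arrays left out. With each array left out, the beta-oxidation median was 0.10 to 0.30, the citric acid cycle median 0.07 to 0.15 and the oxidative phosphorylation median -0.04 to 0.06. The counts of 0 by diet and by slope were 0 under every alternative run. Where a left-out array or a limit did not itself set these changes, the cause was not tested. No paired analysis was possible because the groups share no sample numbers. The smaller set had 4 arrays, 2 of them bearing muscle, and there was no measure of background. Small differences and those of dim genes such as Dio2, Elovl3, Zic1 and Lhx8 are therefore poorly resolved.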

Other observations

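Among 13904 probes that the annotation used here ties to no single gene, 28 were higher and 54 lower without overlap in the Ucp1-high arrays. Of the 14506 named genes, 49 were higher and 133 lower without overlap. Of the probes, 2 were higher by at least 1 without overlap. Probe 10773002 read 7.38 in control 658, 7.53 in control 662, 7.95 in high-fat 629 and 7.07 in high-fat 663, against 5.52 to 6.25 in the Ucp1-low arrays, with a difference of 1.52 with Myh4 fitted. Probe 10817759 read 12.16, 10.78, 11.48 and 10.94 in the same 4 arrays, against 9.07 to 10.50, with a difference of 1.22. Both are descriptions of the split that chose the arrays. The chemokine gene Ccl21, named after its values were seen, differed by 2.07 ± 0.80 (SE) with overlapping sets, at 9.60 to 11.03 in the Ucp1-high and 6.65 to 10.64 in the Ucp1-low arrays.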
